A study of Mus musculus with 4 samples.

Results

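The iron and haem handling genes described here were Hp, Cd163, Hmox1, Fth1, Ftl1, Slc40a1, Tfrc and Slc11a1. They were chosen by symbol, and each matched exactly 1 gene, so they make 8 of the 55450 genes measured. Their messenger RNA was counted as unique molecular identifiers (UMIs, each marking 1 captured transcript molecule) in single cells from 4T1 tumours, a mouse mammary carcinoma. All animals were female BALB/c mice of 6 to 8 weeks that received 1000000 4T1 cells in the right flank. They were given PBS or TIOs, a cell-sized oncolytic system designed to lyse cancer cells, into a vein on day 7. By the published flow cytometry methods, each treatment, the control included, was followed by near-infrared light (NIR) of 980 nm on days 8, 9 and 10. The light lasted 5 min at a power of 1.0 W per square cm, and tumours were taken on day 13. The published antitumour methods give a lower power, and the single-cell sequencing methods state neither light nor day. The published methods describe flow sorting to enrich cells carrying CD45, the leucocyte surface protein.

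The records list 4 samples, of which 2 were PBS, 1 was TIOs+NIR3 (light on 3 days), and 1 could not be assigned because its title and its protocol named different injections. The cells sit in 1 matrix whose barcodes carry 4 suffixes, called library 1 to library 4 below, and no source used here ties a suffix to a sample. No treatment was therefore compared, no p-value was computed, and each library is a sample of unknown treatment.

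In 1 known route of haem iron into a macrophage, haptoglobin, the product of Hp, binds free haemoglobin and the scavenger receptor CD163 takes up the complex. Haem oxygenase 1 (Hmox1) then opens the haem ring and frees the iron, which is stored inside ferritin, a shell built of heavy (Fth1) and light (Ftl1) chains, or leaves the cell through ferroportin (Slc40a1). Iron bound to transferrin enters through the transferrin receptor (Tfrc), and the phagosomal transporter NRAMP1 (Slc11a1) moves metal ions across the phagosome membrane of myeloid cells.

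Part of this set is also controlled after transcription, through hairpins called iron-responsive elements that iron regulatory proteins bind when iron is scarce. As background, such a hairpin before the coding region blocks translation, and hairpins after it keep the transcript from decay, so UMIs of Fth1, Ftl1 and Slc40a1 need not follow their proteins. A search of the sense strand of untranslated regions for a C, 5 bases, the loop CAGTG and 1 further base, with all 5 base pairs of the upper stem formed (G with U allowed), found the element in 4 of the 8 genes. Over 21901 genes with a coding transcript in GENCODE vM21 (GRCm38), 0.721% held a match. The elements are shown because they divide the storage and export genes from the uptake gene, with capitals for the bulged C and the loop.
Fth1, 5′ untranslated region, chr19:9982732-9982761, plus strand: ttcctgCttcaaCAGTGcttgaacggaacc
Ftl1, 5′ untranslated region, chr7:45459778-45459807, minus strand: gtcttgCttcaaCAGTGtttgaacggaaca
Slc40a1, 5′ untranslated region, chr1:45925464-45925493, minus strand: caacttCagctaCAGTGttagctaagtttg
Tfrc, 3′ untranslated region, chr16:32631219-32631248, plus strand: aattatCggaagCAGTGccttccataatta
Tfrc, 3′ untranslated region, chr16:32631598-32631627, plus strand: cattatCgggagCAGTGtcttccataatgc
Tfrc, 3′ untranslated region, chr16:32631663-32631692, plus strand: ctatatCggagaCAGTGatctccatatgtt
Tfrc, 3′ untranslated region, chr16:32631710-32631739, plus strand: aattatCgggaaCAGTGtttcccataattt
The elements of Fth1 and Ftl1 had 26 of 30 bases in common, against 13 of 30 between that of Fth1 and that of Slc40a1. The search matched nothing in Cd163, Hmox1, Slc11a1 or Hp, which says only that this pattern was not in their annotated untranslated regions.

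The matrix held 33064 barcodes, and 32133 cells passed the limits of at least 300 genes and at most 15% mitochondrial UMIs. The libraries held 69255999 to 108646352 UMIs, and between 6783 and 8889 cells were kept in each library, with a median of 2642 to 11698 UMIs. Marker genes placed 27293 cells into 15 types, each named only as like its type, and left 4840 ungated. Library 1 stood apart in its tumour or epithelial-like cells, which made up 48.6% of its kept cells. Their share was 2.57% in library 2, 0% in library 3 and 0.0112% in library 4. Fibroblast-like cells went the other way, at 1.99% in library 1 and 16.96%, 15.1% and 11.9% in libraries 2, 3 and 4. Although the methods describe a CD45 sort, each library thus held cells gated as types other than leucocytes. Whether every library was sorted in this way cannot be told from the counts. Of the 32963 barcode sequences, 101 occurred in more than 1 library, 95 of them among kept cells. Levels are counts of a gene per 1000000 UMIs of the cells summed (CPM), with exact Poisson 95% intervals, shares carry exact (Clopper-Pearson) 95% intervals, and both cover counting error only, since cells of a library share their source. The intervals leave out the spread between cells, so whether they overlap is no test of a difference. A type gives a value in a library only with at least 20 cells there.

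The 8 genes differed in the cell types that held them. Cd163 was highest in macrophage-like cells, with 67.8% of its UMIs, and Hmox1 and Ftl1 were shared by macrophage-, monocyte- and neutrophil-like cells. By CPM, Hp, Fth1 and Slc40a1 were highest in neutrophil-like cells in all 4 libraries, and Slc11a1 marked the same 3 myeloid types with no fixed order. A level in CPM is a share of the UMIs of the cells and not a count per cell. Neutrophil-like cells were the shallowest type, with a median of 1814 UMIs against 7007 in macrophage-like cells. For Fth1, Slc11a1 and Hp the order by UMIs per cell did differ, and neutrophil-like cells did not lead. Most Fth1 UMIs of any gated type lay in 4036 tumour or epithelial-like cells (25.2%). Most Slc11a1 UMIs lay in 3991 monocyte-like cells (30.4%) and most Hp UMIs in 3697 fibroblast-like cells (43.1%). Each of these types had fewer cells than the 9230 neutrophil-like cells. The full order by UMIs per cell is not given. Tfrc had its highest pooled level in pDC-like cells, followed by NK-like and T cell-like cells, and NK-like cells led in libraries 1 and 3. In neutrophil-like cells 4 of the 8 genes were at least 2-fold above all other gated cells (Fth1, Slc40a1, Slc11a1 and Hp), where 11.3% of the genes tested were, and none was at least 2-fold lower, where 37.5% were. Inside libraries 1 to 4 the higher count was 6 of 7, 5 of 8, 5 of 8 and 3 of 8, against 10.4% to 12.6% of genes. Cd163, at 0.516-fold pooled, was at least 2-fold lower in library 2 (0.321-fold) and library 4 (0.485-fold). There 40.3% and 34% of genes were lower. In macrophage-like cells 4 of 8 were at least 2-fold higher (Cd163, Hmox1, Ftl1 and Slc11a1), against 6.09% of genes tested, and Hp was lower, against 11.9%. Inside the libraries the higher count was 3 of 6, 5 of 8, 4 of 8 and 5 of 8, against 4.31% to 10.1%. Hp was at least 2-fold lower in libraries 2, 3 and 4, against 11.6% to 15.7% of genes, and at 0.602-fold in library 1. In monocyte-like cells 4 of the 7 genes tested were higher (Hmox1, Ftl1, Slc11a1 and Hp), against 8.86%, but this count was 2 without library 1, and no library by itself reached it. Inside libraries 1 to 4 it was 2 of 6, 1 of 8, 3 of 8 and 2 of 8, against 7.82% to 10.9%, and Hmox1, pooled at 2.21-fold, was at 1.17, 1.81, 2.35 and 1.17. In T cell-like cells 0 of 7 were higher, against 9.13%, and 6 were lower, against 16%, with Tfrc the exception at 1.71-fold. Inside library 4, 1 of 7 was higher (Tfrc, 2.15-fold), against 10.5%. Folds were taken after adding 10 CPM to both sides, among genes reaching 10 CPM on either side, so a member tested only because it is high in 1 type had to differ there. Fibroblast-like cells had 0 of 8 members higher, against 10.6% of genes tested, and 4 lower, against 11.4%. Inside libraries 2, 3 and 4, however, 7, 6 and 6 of 8 were lower, against 12.2% to 16.7%, and Hp was 2.53-fold higher in library 2. Tumour or epithelial-like cells, of which 3814 of 4036 came from library 1, had 0 of 7 higher, against 6.47%, and 5 lower, against 16.7%. Inside library 1 they had 0 of 6 higher, against 6.91%, and 3 lower, against 13.6%. Inside library 2 they had 1 of 8 higher (Tfrc, 2.45-fold), against 7.4%, and 5 lower, against 16%. In pDC-like cells 1 of 7 was higher (Tfrc), against 12.8%, and 3 lower, against 16.8%, and in pericyte or smooth muscle-like cells 1 of 7 was higher (Slc11a1), against 6.8%, and 5 lower, against 8.15%. This last call was not shared by the libraries. In pericyte or smooth muscle-like cells Slc11a1 was 2.3-fold in library 2, where 1 of 8 was higher, against 6.51%. It was 1.23-fold in library 3, where 0 of 8 were higher, against 5.51%.

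**Figure D1:**
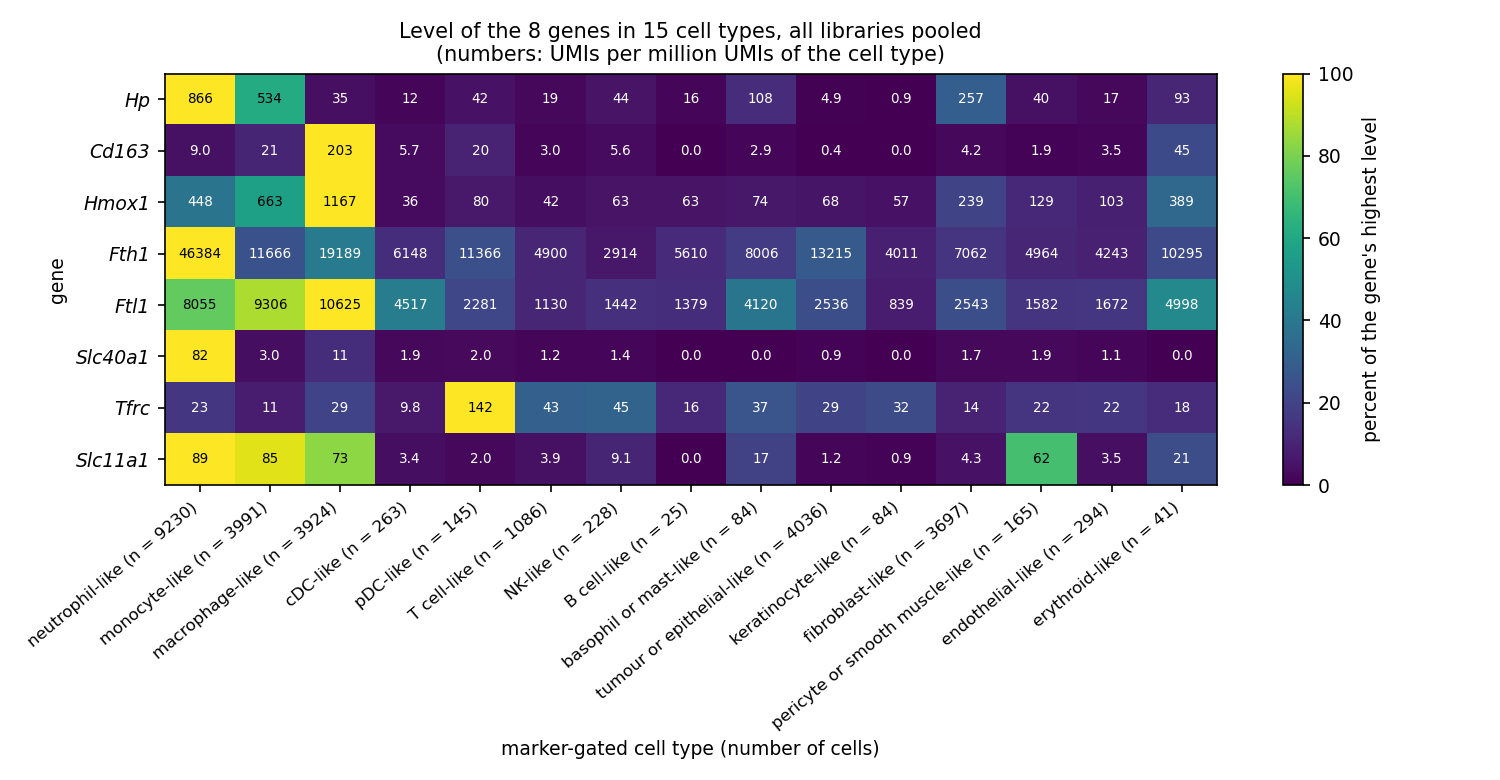
Level of each gene (rows) in each of 15 marker-gated cell types (columns, with the number of cells), as CPM with all libraries pooled; the colour gives the level as a percent of the gene's highest. Hp, Fth1, Slc40a1 and Slc11a1 are brightest in neutrophil-like cells, Cd163, Hmox1 and Ftl1 in macrophage-like cells and Tfrc in pDC-like cells.

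Hp, which encodes the plasma protein haptoglobin made chiefly by liver, lies at chr8:109575128-109579172 on the minus strand. Its level in neutrophil-like cells was 809 CPM in library 1, 667 in library 2, 831 in library 3 and 1312 in library 4. Monocyte-like cells held 232, 340.3, 311 and 579 CPM in the same order. Neutrophil-like cells were thus higher inside every library, by a ratio of 1.44 (library 2, where fibroblast-like cells came next) to 3.49 over the next type. Of 9230 neutrophil-like cells 60.1% held an Hp UMI (median depth 1814 UMIs), against 6.72% of T cell-like cells (median depth 3953), which are not known to make it. After each cell was thinned to 1000 UMIs the shares were 46.8% and 1.31%. Thinning left out 1890 shallower cells of the 32133.

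Fibroblast-like cells held the most Hp UMIs of any gated type, 43.1% of 69790, although their pooled level of 257 CPM was below the 866 of neutrophil-like cells. In fibroblast-like cells the libraries were far apart. The level was 28.0 CPM in library 1, 464 in library 2, 87.4 in library 3 and 239 in library 4. The transcripts were concentrated in few cells: the top 10% of fibroblast-like cells by Hp held 86.3% of the Hp UMIs in library 2 and 86.1% in library 3, but 59.5% in library 4. Cells with a UMI of Dpt, which encodes the matrix protein dermatopontin, had 2.84 times the Hp level of the others in library 2 and 7.42 times in library 3. That ratio was 1.08 in library 4 and 0.878 in library 1, so a higher level in Dpt-bearing cells was not shared by all libraries. A division of the same cells by Lrrc15, another gene of fibroblasts, gave Hp ratios of 1.27, 3.45, 2.28 and 0.485 in libraries 1 to 4, with overlapping intervals in library 1.

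Macrophage-like cells held little Hp, at 7.58, 48.5, 34.0 and 73.3 CPM in libraries 1 to 4. These values lay below those of monocyte-like cells in every library.

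Cd163 encodes the scavenger receptor for haptoglobin-haemoglobin complexes and lies at chr6:124304656-124330527 on the plus strand. Its level in macrophage-like cells was 6.25 CPM in library 1, 521 in library 2, 359.6 in library 3 and 255 in library 4. Library 1 lay far below the other 3, where 27 of 1479 macrophage-like cells held a Cd163 UMI against 572 of 1204, 95 of 266 and 369 of 975. Macrophage-like cells were still the highest type inside each library, with 12.7 to 15.3 times the level of the next type in libraries 2 to 4. In library 1 they held 94 UMIs and the next type, T cell-like cells, 1 UMI, too few for a ratio. The pooled level of 203 CPM was 378 without library 1 and 109 without library 2.

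In macrophage-like cells of library 1 the 9 macrophage markers together reached 22580 CPM, against 12490.1 to 16864 in libraries 2 to 4. The gate chose these cells by the same 9 markers, so this sum was partly set by the choice. The 7 monocyte markers were lowest in library 1, at 537 against 1916 to 2429, and the tumour or epithelial markers highest, at 677 against 0 to 35.6. The part of these in the low Cd163 of library 1 was not tested.

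Outside macrophage-like cells Cd163 was sparse. Pooled, erythroid-like cells, a small gate with markers of other types, came next at 45.2 CPM. Monocyte-like cells followed at 21.1 and pDC-like cells at 20.1. Monocyte-like cells held 0, 34.1, 24.7 and 20.2 CPM in libraries 1 to 4, and neutrophil-like cells 0, 14.5, 3.96 and 12.3. In library 1 the 0 rests on 0 UMIs in 87 monocyte-like cells, for which the floor of 3 counts is 6.63 CPM. Of the 9556 Cd163 UMIs 67.8% (95% interval 66.8% to 68.7%) lay in macrophage-like cells and 16.6% in ungated cells. After thinning, 15.9% of macrophage-like cells held a Cd163 UMI, against 0.0935% of T cell-like cells.

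Hmox1, the inducible enzyme of haem breakdown, lies at chr8:75093621-75100589 on the plus strand. Macrophage-like cells held 212 CPM in library 1, 1375 in library 2, 2769 in library 3 and 2462 in library 4. Neutrophil-like cells held 910.3, 396, 443 and 367, and monocyte-like cells 115, 559, 906 and 651. The order turned with the library: macrophage-like cells led in libraries 2, 3 and 4, by 2.46 to 3.78 times the next type, and neutrophil-like cells led in library 1, by 4.29 times. The pooled level in macrophage-like cells, 1167 CPM, was 2017 without library 1 and 711 without library 4.

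Library 1 therefore held both the lowest macrophage-like and the highest neutrophil-like level of Hmox1. Its neutrophil-like cells also carried the most macrophage markers, 1183 CPM against 254 to 862 in the others, and 956 CPM of tumour or epithelial markers against 2.41 to 46.6. The part of either in the Hmox1 level was not tested.

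Fibroblast-like cells held Hmox1 at 43.6, 173, 335 and 223 CPM in libraries 1 to 4. T cell-like cells were lower in every library, at 22.2, 39.7, 44.9 and 74.9 CPM. After thinning, 42.9% of macrophage-like, 33.6% of monocyte-like, 24.7% of neutrophil-like and 4.02% of T cell-like cells held a UMI. Within macrophage-like cells the transcript was uneven, since the top 10% of cells by Hmox1 held 49.7% to 58.2% of its UMIs in the 4 libraries.

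**Figure D2:**
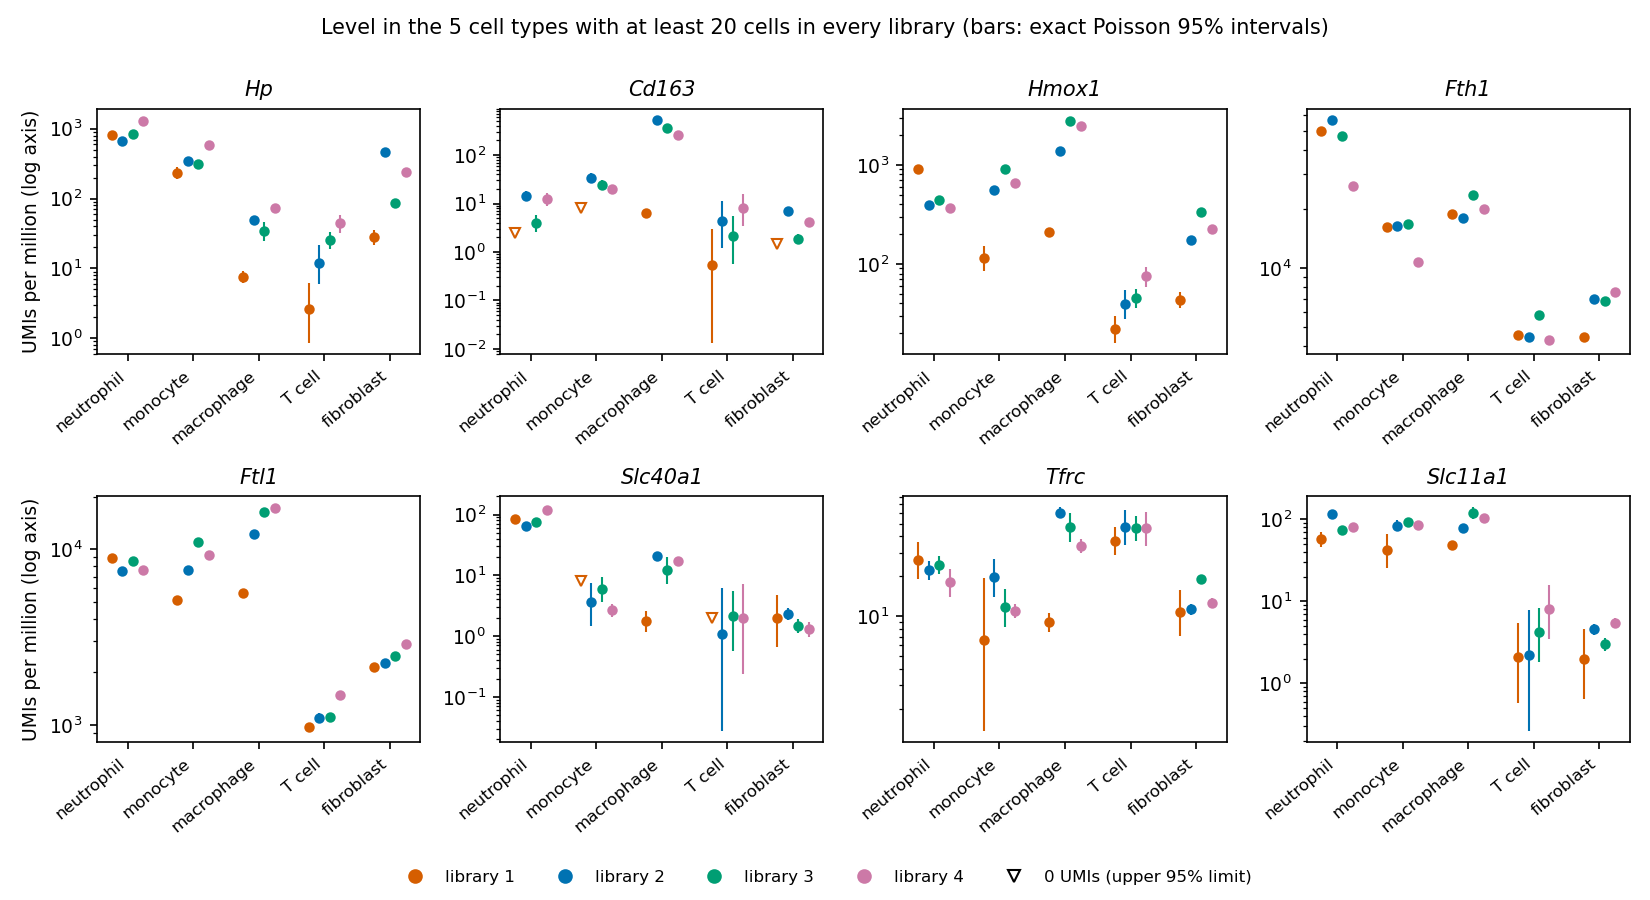
Level of each gene (CPM, log axis) in the 5 cell types with at least 20 cells in every library; each point is 1 library with its exact Poisson 95% interval, and open triangles are upper limits for 0 UMIs. Library 1 is the lowest of the 4 macrophage-like values for Hp, Cd163, Hmox1, Ftl1, Slc40a1, Tfrc and Slc11a1, but not for Fth1. The share of all genes lowest in that library was not counted.

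In macrophage-like cells Fth1 was at 18926 CPM in library 1 against 17943 in library 2, while library 1 was the lowest for the other members. The share of all genes lowest in library 1 was not counted, so this is not read as a trait of the set. In neutrophil-like cells library 1 was highest for Hmox1, Ftl1 and Tfrc and lowest for Cd163 and Slc11a1.

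Ferritin made up a large share of the RNA of neutrophil-, macrophage- and monocyte-like cells. Fth1 and Ftl1 together took 5.44% of all UMIs of neutrophil-like cells, 2.98% of those of macrophage-like and 2.1% of those of monocyte-like cells, against 0.603% in T cell-like and 0.436% in NK-like cells. Other types lay between, with 1.58% in tumour or epithelial-like, 1.36% in pDC-like and 1.07% in cDC-like cells. Every neutrophil-like cell held an Fth1 UMI, as did 99.9% of all kept cells, so the types differed in its share of UMIs and not in its presence.

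Fth1, the heavy chain that oxidises iron on entry into the shell, lies at chr19:9980598-9985098 on the plus strand. Neutrophil-like cells held 49837 CPM in library 1, 56648 in library 2, 46716 in library 3 and 26019 in library 4. Macrophage-like cells held 18926, 17943, 23502 and 20082, and monocyte-like cells 16113, 16367, 16669 and 10676. Neutrophil-like cells led in all 4 libraries, by 1.3 times the next type in library 4 and by 1.99 to 2.87 times in the others. Tumour or epithelial-like cells held 13462 CPM in library 1 and 11168 in library 2, and because of their depth they accounted for 25.2% of the 4550025 Fth1 UMIs. T cell-like cells held 4298 to 5767 CPM and NK-like cells 2477 to 3262.

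Ftl1, the light chain that favours nucleation of the mineral core, lies at chr7:45457944-45459884 on the minus strand. Macrophage-like cells held 5654 CPM in library 1, 12315 in library 2, 16244 in library 3 and 17256 in library 4. Neutrophil-like cells held 8961, 7509, 8622 and 7593, and monocyte-like cells 5181, 7589, 10997 and 9300.3. As for Hmox1, macrophage-like cells led in libraries 2, 3 and 4, by 1.48 to 1.86 times the next type, and neutrophil-like cells led in library 1, by 1.59 times. In library 2 monocyte-like and neutrophil-like cells had overlapping intervals for Ftl1. The gene shares its locus with Gm22133 on the same strand, which had 0 UMIs, and with Gm10252 on the opposite strand, which had 147.

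The balance of the chains differed between the myeloid types. The ratio of Fth1 to Ftl1 UMIs in neutrophil-like cells was 5.56, 7.54, 5.42 and 3.43 in libraries 1 to 4. In macrophage-like cells it was 3.35, 1.46, 1.45 and 1.16, and in monocyte-like cells 3.11, 2.16, 1.52 and 1.15. Neutrophil-like cells thus had the higher ratio inside each library, and their lowest value, in library 4, was just above the highest of the macrophage-like values, in library 1. The ratio was also high in tumour or epithelial-like cells, at 5.34 and 4.21 in libraries 1 and 2, and in T cell-like cells, at 2.9 to 5.16. Capture may differ between the transcripts, so the ratio is read only between cell types.

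**Figure D3:**
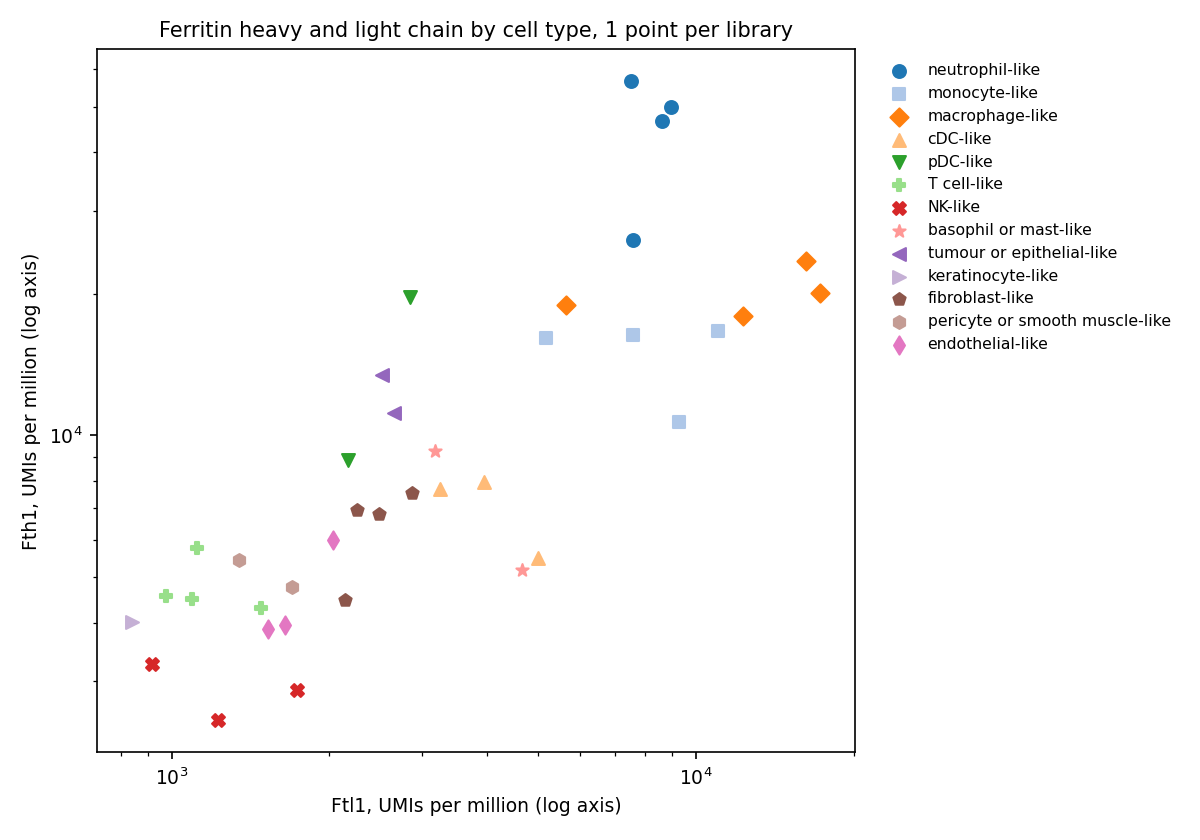
Fth1 against Ftl1, both in CPM on log axes, with 1 point for each cell type and library of at least 20 cells. The 4 neutrophil-like points lie at the top with 26019 to 56648 for Fth1, while 3 of the 4 macrophage-like points lie farther right with 12315 to 17256 for Ftl1.

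Near-identical copies of the ferritin genes can take reads. Ftl1-ps1, which is 99.6% identical to Ftl1 over 910 aligned bases, held 5504 UMIs against 1629040 for Ftl1. Fth-ps2 held 224 and Ftl1-ps2 104, and Ftmt, the mitochondrial ferritin, held 0 UMIs. The sources used here do not say how reads matching several copies were counted.

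Slc40a1 encodes ferroportin, the known iron exporter of mammalian cells, and lies at chr1:45908068-45926523 on the minus strand. Neutrophil-like cells held 83.4 CPM in library 1, 66.0 in library 2, 76.2 in library 3 and 119.5 in library 4. Macrophage-like cells held 1.8, 20.9, 12.4 and 17.2. The intervals of these types did not overlap inside any library, and neutrophil-like cells were the highest type in all 4, at 3.16 to 6.96 times the next in libraries 2 to 4 and 41.7 times in library 1, where the next type, fibroblast-like cells, had 5 UMIs. Counts were low, since the 9230 neutrophil-like cells held 1549 UMIs, which were 60.4% (95% interval 58.5% to 62.3%) of all Slc40a1 UMIs. Of these cells 13.2% held a UMI, and 8.14% after thinning, against 1.03% of macrophage-like and 0.187% of T cell-like cells after thinning.

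The macrophage markers summed to 522 CPM in neutrophil-like cells and to 18620 in macrophage-like cells, and their part in the Slc40a1 level was not tested. Among neutrophil-like cells, those with a Slc40a1 UMI had a higher level of C1qa, Apoe or Mrc1 than those without in 1 library of 4 for each gene, each time with overlapping intervals, and ratios ran from 0.577 to 1.38 for C1qa and from 0.474 to 1.37 for Mrc1. They had less Mmp9, a granule protease, in all 4 libraries, at 0.607 to 0.913 times the level of the others. Hp, Tfrc and Slc11a1 were each higher in 2 of 4 libraries, and Hmox1, Fth1 and Ftl1 in 3 of 4. This division, like those by Cd274, Arg1, Dpt and Lrrc15, was chosen after seeing the data.

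Slc11a1, the NRAMP1 transporter of the phagosome, lies at chr1:74375195-74386062 on the plus strand. Neutrophil-like cells held 57.4 CPM in library 1, 115 in library 2, 73.8 in library 3 and 81.7 in library 4. Monocyte-like cells held 42.0, 84.2, 92.4 and 84.5, and macrophage-like cells 49.5, 78.8, 119.9 and 104.5. Neutrophil-like cells led in libraries 1 and 2 and macrophage-like cells in libraries 3 and 4, so the 3 types had no fixed order. Their pooled levels lay between 73.3 and 88.5 CPM, far above the 3.87 of T cell-like and 1.24 of tumour or epithelial-like cells. Outside the myeloid types, pericyte or smooth muscle-like cells held Slc11a1 at 71.1 CPM in library 2 and 27.6 in library 3. Of these 165 cells 39.4% had a UMI. Their own markers, by which they were gated, reached 17634 CPM, against 256 for the macrophage and 211 for the monocyte markers. The part of the macrophage and monocyte markers in the Slc11a1 level was not tested.

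Tfrc, the receptor that imports transferrin-bound iron and is known to be high on dividing cells, lies at chr16:32608920-32632794 on the plus strand. Its highest pooled level, 142 CPM, was in 145 pDC-like cells, where it was 75.1 in library 2 (13 UMIs) and 159 in library 4 (95% interval 130 to 192). Libraries 1 and 3 had too few of these cells for a value, and the pooled level without library 4 was 106. The gate for these cells was led by its own markers, at 8648 CPM, but their monocyte markers also reached 6343. In library 2 the pDC-like level did not differ from the 66.1 CPM of tumour or epithelial-like cells beyond the counting intervals.

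T cell-like cells held Tfrc at 37.0, 47.4, 46.0 and 45.9 CPM in libraries 1 to 4, the narrowest spread, as the ratio of highest to lowest, among the types measured in all libraries. NK-like cells held 61.5, 51.1 and 37.7 in libraries 1, 3 and 4, with intervals that overlapped those of T cell-like cells. Monocyte-like cells were low, at 6.63, 19.6, 11.7 and 10.96, and below macrophage-like cells (8.97, 60.3, 47.2 and 34.0) in every library. In library 1 the intervals of these last types overlapped.

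Cells were also divided by cycling, as those with a UMI of at least 2 cycling genes against the rest of the same type and library. In T cell-like cells Tfrc was higher in the cycling cells of all 4 libraries, at 48.9 against 31.3, 50.8 against 40.9, 71.8 against 39.0 and 48.3 against 44.95 CPM. The intervals overlapped in all 4. Fibroblast-like cells showed ratios of 0.995, 1.71, 1.71 and 1.38 in libraries 1 to 4, and the intervals did not overlap in libraries 2, 3 and 4. Macrophage-like cells had ratios of 1.44, 1.36 and 1.14 in libraries 1, 2 and 4. Tumour or epithelial-like cells had 1.08 in library 1 and 0.565 in library 2, with intervals apart in library 2. The highest ratio was 4.27, in neutrophil-like cells of library 3, where 25 cycling cells held 95.1 CPM against 22.3 in the rest, with intervals apart. The same 25 cells held Fth1 at 0.42 and Ftl1 at 0.569 times the level of the rest, so they were not typical of their type. Doublets were kept, and the part of doublets or misplaced cells in this ratio was not tested. In the other types, each measured in 1 library, the ratio was 0.505 in cDC-like, 1.77 in monocyte-like, 1.82 in keratinocyte-like, 1.35 in pericyte or smooth muscle-like and 1.52 in endothelial-like cells. Cycling cells were deeper, with a median of 8500 to 19495 UMIs against 3133 to 4384 in T cell-like cells, which makes it easier to see the UMIs that define them.

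Macrophage-like cells with a Cd163 UMI were compared with those without, inside each library, to see whether the genes of the pathway were found in the same cells. Library 1 had 27 cells with a UMI and 1452 without, library 2 had 572 and 632, library 3 had 95 and 171, and library 4 had 369 and 606. The cells with a UMI were not always deeper: their median depth was 8765 UMIs against 9957, 5326 against 4837, 3444 against 4307 and 7540.0 against 7917. Hmox1 was higher in the cells with Cd163 in every library, at 646 against 204, 1451 against 1297, 4344 against 1915 and 3711 against 1696 CPM. The counting intervals, which leave out the spread between cells, did not overlap in any of the 4. Transcripts of other cell types also moved with this division: S100a8, a neutrophil gene, was 1.81, 0.9, 2.99 and 0.931 times as high with Cd163, with intervals apart in libraries 1 and 3, and Col1a1, a fibroblast collagen, was 1.1 to 1.67 times as high in the 4 libraries, with overlapping intervals. Their part in the result was not tested.

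Other genes of iron and haem handling differed in direction. Blvrb, the biliverdin reductase B of the wider list, was higher with Cd163 in every library, at 1.27 to 1.56 times the level without, with overlapping intervals in library 3. Slc40a1 was 4.36, 2.32, 1.84 and 2.86 times as high in libraries 1 to 4. Library 1 rests on 2 UMIs and library 3 on 8 in each group, while intervals did not overlap in libraries 2 and 4. Tfrc was 1.24, 1.32, 1.56 and 1.33 times as high, with overlapping intervals in libraries 1, 3 and 4.

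Fth1 went the other way, at 0.806, 0.731, 0.758 and 0.91 of the level without Cd163, and the intervals did not overlap in any library. Ftl1 was lower in libraries 2, 3 and 4, at 0.751, 0.762 and 0.853, but 1.39 times as high in library 1. Slc11a1 was lower in libraries 1, 2 and 3, at 0.818, 0.759 and 0.731, and 1.24 times as high in library 4. Hp showed no direction, with ratios of 0.973, 1.01, 0.474 and 1.07. Other macrophage genes moved with the division as well: Mrc1, the mannose receptor, was 1.79 to 6.49 times as high with Cd163, C1qa 1.17 to 1.49 times, and H2-Ab1, an MHC class II chain, 0.528 to 0.989 times, with overlapping intervals in libraries 3 and 4.

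**Figure D4:**
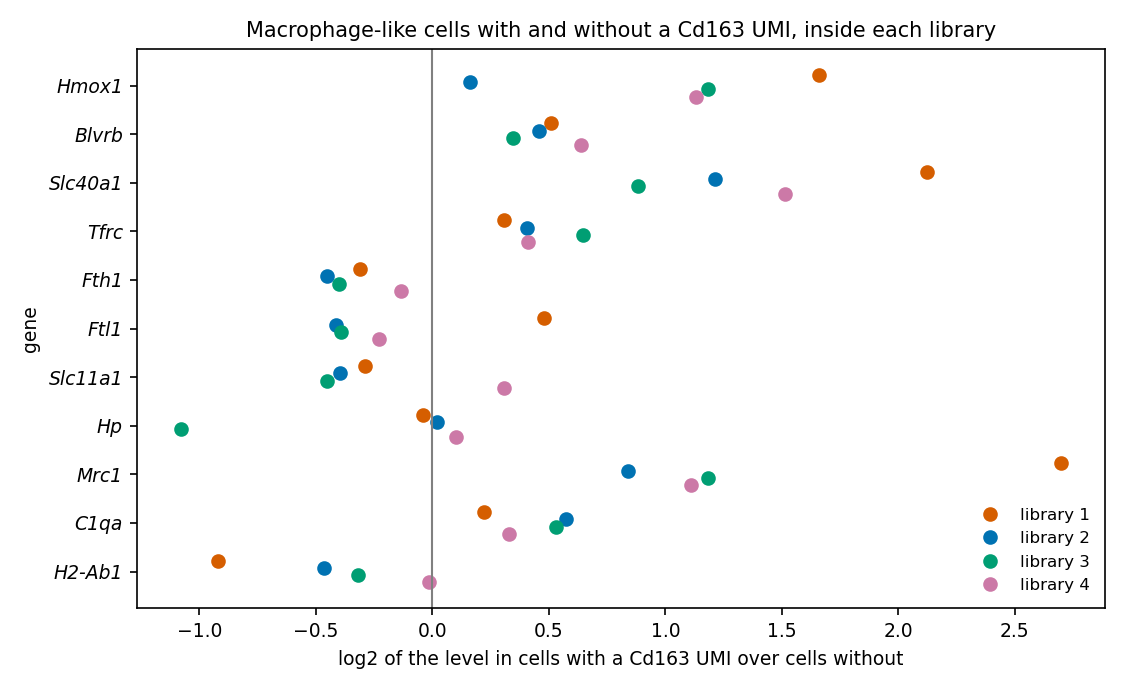
Log2 ratio of the level in macrophage-like cells with a Cd163 UMI to that in cells without (horizontal axis), for 11 genes, with 1 point per library. Hmox1, Blvrb, Slc40a1, Tfrc, Mrc1 and C1qa lie to the right of 0 in all 4 libraries, and Fth1 and H2-Ab1 to the left.

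Arg1, the arginase of alternatively activated macrophages, divided the genes differently. Macrophage-like cells with an Arg1 UMI had more Hmox1 in all 4 libraries, at 1.75, 1.54, 1.24 and 1.03 times the level of those without, with overlapping intervals in library 4. The cells with Arg1 were deeper in every library, with a median of 4324 to 11751 UMIs against 2945 to 8664. Their Cd163 level was 0.485, 0.461 and 0.97 times that of the others in libraries 2, 3 and 4, and 2.36 times in library 1. Fth1 and Ftl1 were at 1.01 to 1.54 and 1.01 to 1.4 times the level without Arg1.

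Neutrophil-like cells with a UMI of Cd274, which encodes PD-L1, were compared with those without in the same way. Fth1 was higher with Cd274 in every library, at 59480 against 40952, 70857 against 43061, 51561 against 42820 and 29861 against 25213 CPM. Hmox1 was 1.52, 2.06, 1.13 and 1.29 times as high and Ftl1 1.18, 1.52, 1.07 and 1.09 times. Hp was lower in all 4, at 0.507, 0.64, 0.788 and 0.81 times the level without. Cells with a Cd274 UMI were slightly deeper, with a median of 1710.0 to 2124 UMIs against 1431 to 1858.

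A wider list of 56 other iron and haem genes was read in the same way. Of the 39 that could be tested in neutrophil-like cells, 8 were at least 2-fold higher than in the other gated cells and 16 at least 2-fold lower, where 11.3% and 37.5% of all genes tested were. The 8 were Slc7a11, Lcn2, Fbxl5, Ltf, Alas1, Slc25a37, Nfe2l2 and Steap4. Slc7a11, Fbxl5, Ltf and Alas1 were at least 2-fold higher inside all 4 libraries. Lcn2, Nfe2l2 and Slc25a37 were so in libraries 2, 3 and 4, and Steap4 only in library 1. By library the higher count was 5 of 38, 7 of 39, 7 of 38 and 7 of 41, against 10.4% to 12.6%. The lower count was 10, 17, 16 and 15, against 31.2% to 40.3%. Slc7a11, the cystine transporter that feeds glutathione synthesis, was the highest of the 8 by fold, at 292, 1475, 973 and 1096 CPM in libraries 1 to 4, against 75.3 in cDC-like cells, the next type. Fbxl5, the iron-sensing subunit of the ligase that degrades iron regulatory protein 2, was at 448, 409.6, 389 and 486. Alas1, the first enzyme of haem synthesis, was at 124, 131, 135 and 85.5.

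In macrophage-like cells 6 of 38 were at least 2-fold higher (Trf, Slc48a1, Blvra, Blvrb, Nfe2l2 and Hfe), against 6.09%, and 5 lower, against 11.9%. By library the higher count was 5 of 36, 9 of 41, 8 of 39 and 3 of 39, against 4.31% to 10.1%. The lower count was 6, 5, 5 and 7, against 11.6% to 15.7%. Blvra and Blvrb were higher in all 4 libraries and Slc48a1 in libraries 2, 3 and 4. Trf and Hfe were higher in libraries 1, 2 and 3, and Nfe2l2 only in library 1. Blvrb was at 212, 355, 315 and 364 CPM in libraries 1 to 4, and macrophage-like cells led in all 4. Slc48a1, which carries haem out of the lysosome, was at 52.9, 197, 272 and 264 and also led in all 4, with library 1 the lowest. Trf, which encodes transferrin, ran the opposite way across libraries, at 425 in library 1 and 286, 127 and 79.6 in the others. In monocyte-like cells 4 of 39 were higher (Trf, Hmox2, Blvra and Bach1), against 8.86%, and 5 were lower, against 17.5%. By library the higher count was 6 of 36, 3 of 39, 4 of 39 and 4 of 39, against 7.82% to 10.9%. The lower count was 6, 7, 8 and 8, against 16.5% to 18.7%. Blvra and Bach1 were higher in all 4 libraries, Trf in libraries 2, 3 and 4, and Hmox2 in libraries 3 and 4. Bach1, the haem-sensing repressor, was at 175, 351, 287 and 176 CPM and highest in monocyte-like cells in all 4 libraries.

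**Figure D5:**
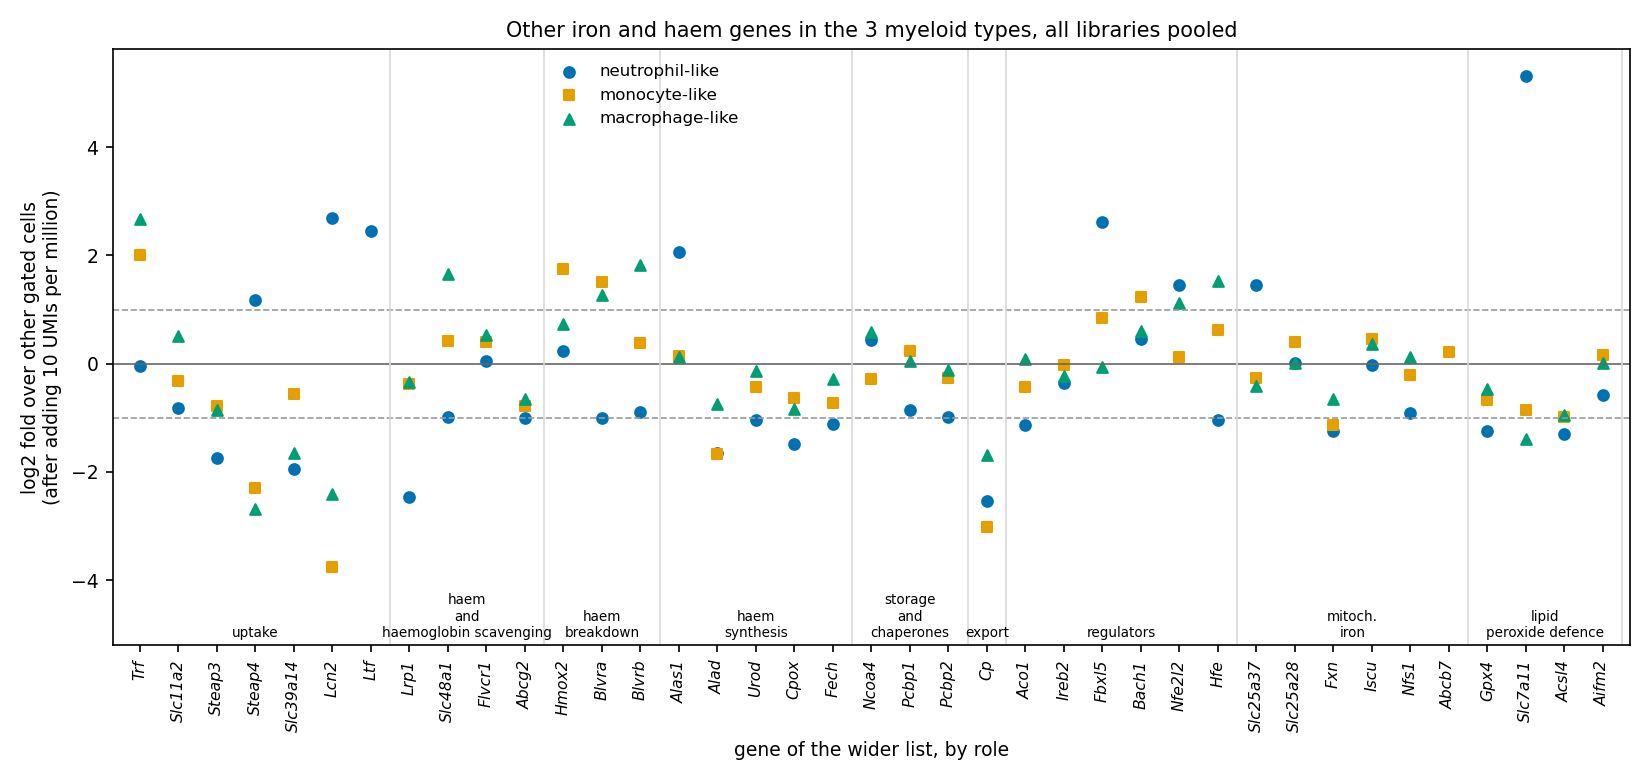
Log2 fold of genes of the wider list in neutrophil-, monocyte- and macrophage-like cells over all other gated cells, after adding 10 CPM, with libraries pooled; dashed lines mark 2-fold. Slc7a11, Lcn2, Fbxl5, Ltf and Alas1 are highest in neutrophil-like cells, and Blvrb, Slc48a1 and Hfe in macrophage-like cells.

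The genes whose pattern was most like that of each member were found by Pearson's correlation of log2(CPM + 10) over 38 pairs of cell type and library, among 14083 genes. The pairs share libraries and depth, so these values are descriptions. The 3 closest to Cd163 were Cbr2 (0.944), Fcrls (0.936) and Folr2 (0.927), and those closest to Hmox1 were Fam20c (0.901), Atp6v1a (0.874) and Ctsb (0.870). For Fth1 they were Gm6977 (0.889), Atp6v0c (0.885) and Cd300lf (0.874). Gm6977 is 91.2% identical to Fth1 over 411 aligned bases, so its reads may belong to Fth1. For Ftl1 they were Gabarap (0.945), Sirpa (0.902) and Atp6v0c (0.897), and for Slc40a1 Arsg (0.928), Hnmt (0.928) and Fpr1 (0.925). Slc11a1 was closest to Arl11 (0.882), C5ar1 (0.869) and Plin2 (0.869), and Hp to Igfbp6 (0.869), Chmp4b (0.858) and Il17ra (0.857). Tfrc had no close neighbour, with Pde7a highest at 0.713, followed by Gm40309 (0.705) and Tex2 (0.693).

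Among the members themselves Fth1 and Ftl1 (0.806), Ftl1 and Slc11a1 (0.806) and Hmox1 and Ftl1 (0.803) had the highest values over the same pairs. Tfrc was at 0.256 with Cd163 and at or below -0.0141 with each of the other 6.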

How the data were processed

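Whole-number UMI counts per gene and barcode were deposited by the authors as 1 matrix, not scaled. Cell Ranger made it by alignment, cell calling and UMI counting and joined the libraries. The matrix header names version 6.1.2 and the submitters' processing notes version 2.1.1 and mm10. The methods name another version. The sources used here name neither the annotation nor whether depth was equalised. All 55450 identifiers were found in GENCODE vM21.

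A barcode was kept if it had at least 300 genes and at most 15% mitochondrial UMIs, which removed 931. For each type, natural log UMIs per 10000 were averaged over its markers and divided by the mean of the 100 best cells. A cell took the highest type if its score was at least 0.3, led by 0.1 and rested on at least 3 markers. This rule was set after seeing the data, and Ahsp, a marker of erythroid cells, was not found. The erythroid-like gate held 41 cells with markers of other types. Apart from that of Cd163, its levels are not described in the text, but its cells count among the other gated cells in every fold. The B cell-like gate held 25. Doublets were kept, except in 1 alternative that removed the 5% of cells with the highest Scrublet scores.

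UMIs were summed over the cells of a type, pooled and for each library. With 1 pooled sample there was no test, and called means at least 2-fold after adding 10 CPM. Thinning drew 1000 UMIs per cell without replacement. The members, markers and lists were chosen with earlier results of these data known. All 8 members are named, and of the wider list (Hjv was found as Hfe2) the counts, with values for genes of the highest level or largest fold. Lists of its genes past 2-fold, and the divisions by Cd274, Retnlg, Arg1, Dpt, Lrrc15 and Slc40a1, were chosen after their values were seen. The 3 most alike genes are named for each member.

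The code for gate, folds, intervals and thinning was run on simulated data. The simulated cells were drawn from the mean profiles of cells that this gate had already placed. They held no doublets, and cells of a type differed only by depth and sampling. The simulation thus cannot show how well the gate works on real cells. Alternatives were other gene and mitochondrial limits, a lead of 0.25 in the gate, names by Leiden cluster (resolution 1.0, 2000 variable genes, 30 components, 20 neighbours), doublet removal, equal weight for cells, thinning, a detection limit of 2 UMIs, and omission of each library in turn. Python 3.11.15, numpy 2.4.6, scipy 1.17.1, pandas 2.3.3, scanpy 1.11.5, igraph 0.11.9, scikit-learn 1.9.0 and matplotlib 3.10.9 were used. The result of 1 gene of the wider list is not reported here by name, though the counts include it.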

Additional observations from a re-analysis of the deposited data

Results flagged for a closer look

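In 40 combinations of gene and cell type with at least 20 cells in all 4 libraries, the gap between the most extreme library and its neighbour was set against the range of the 4 and compared with Dixon's 95% critical value. The libraries are samples of unknown treatment and not replicates of a group, and chance marks about 1 group in 20. The gap passed that value in 4 combinations. Hmox1 in neutrophil-like cells was 910.3 CPM in library 1 against 367 to 443 in the others. Fth1 in monocyte-like cells was 10676 in library 4 against 16113 to 16669. Tfrc in T cell-like cells was 37.0 in library 1 against 45.9 to 47.4, with overlapping counting intervals. Slc11a1 in monocyte-like cells was 42.0 in library 1 against 84.2 to 92.4, where library 1 held 87 such cells. The cause was not tested in any of them.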

How the results depend on the processing

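With 1 pooled matrix the values carry counting error only, and depth, which differs between libraries and types, limits every share of cells with a UMI. No paired analysis was possible because the barcode suffixes are tied to no sample. Of 180 alternative values 117 stayed within their limit, 60 moved beyond it and 3 changed sign. The limit was the counting interval for levels and shares and the spread between libraries for the log2 ratios. For counts of members it was a fixed ratio to the main count, which a change from 4 to 6 did not pass. Gates, doublet scores and weights moved levels (in CPM) as follows. Cd163 in macrophage-like cells, 203, was 196 with names by Leiden cluster, 212 without likely doublets and 315 with cells of equal weight. Hmox1 there, 1167, was 969 with the stricter gate, 1291 by cluster, 1182 without doublets and 1391 with equal weight. Ftl1 there, 10625, was 9448, 10505, 10842 and 10173 in the same order. Fth1 in neutrophil-like cells, 46384, was 46171 at 500 genes, 46720 with the stricter gate (46719.7), 48052 by cluster, 47128 without doublets and 46588 with equal weight. Slc40a1 there, 81.7, was 86.2 with the stricter gate and 90.7 with equal weight, and Hp, 866, was 907 with the stricter gate, 894 without doublets and 888 with equal weight.

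Leaving out each library in turn gave 109 to 378 for Cd163 and 711 to 2017 for Hmox1. It gave 8286 to 15051 for Ftl1, 40814 to 51373 for Fth1, 72.4 to 90.2 for Slc40a1, 106 to 156 for Tfrc in pDC-like cells, 74.2 to 97.3 for Slc11a1 and 757 to 974 for Hp in neutrophil-like cells. The members at least 2-fold higher numbered 2 to 4 in monocyte-like cells (2 without library 1) and 4 to 6 in neutrophil-like cells (6 without library 4), and 4 in macrophage-like cells each time. The cause was not tested.

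Shares of cells fell with thinning to 1000 UMIs and with a limit of 2 UMIs, which both ask for more RNA per cell: Cd163 from 27.1% to 15.9% and 19.9%, Hmox1 from 73.7% to 42.9% and 58.2%, Slc40a1 from 13.2% to 8.14% and 2.67%, Tfrc from 56.6% to 12.5% and 26.9%, Slc11a1 from 15.0% to 8.48% and 2.45%, Hp from 60.1% to 46.8% and 38.7%, and Ftl1 from 99.2% to 97.4% with the limit of 2 UMIs. In the division by Cd163, the median log2 ratio of Tfrc, 0.41, was 0.24 after thinning. That of Hp, -0.01, was 0.018 with at least 2 Cd163 UMIs and -0.039 to 0.019 without each library, changing sign without library 1 and without library 3.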

Other observations

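Neutrophil-like cells were also divided by Retnlg, a gene of mature blood neutrophils, a choice made after seeing the data. Cells with a Retnlg UMI had less Ftl1 than those without in all 4 libraries, at 0.640 to 0.919 times the level, and less Hmox1, at 0.770 to 0.989 times. Fibroblast-like cells with a Dpt UMI had more Fth1 in all 4 libraries, at 1.07 to 1.32 times the level of those without, and less Hmox1, at 0.599 to 0.934 times, with overlapping Hmox1 intervals in libraries 1 and 4. Both divisions are descriptions with no test.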
